A study of Mus musculus with 6 samples.

Results

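The genes described here are 10 parts of the bone morphogenetic protein (BMP) pathway and its inhibitor of DNA binding (Id) targets, out of 35325 GENCODE genes on mm10 (protein-coding genes and lncRNAs). They are the ligand Bmp4, the receptors Bmpr1a and Bmpr2, the signal transducer Smad1, the inhibitory Smads Smad6 and Smad7, and the targets Id1, Id2, Id3 and Id4. They were chosen by name, and no measured value entered the rule. For each gene, CAGE tags were summed within 500 bp of every annotated 5′ end on the gene's own strand and divided by the total of the library. A level is given in counts (tags) per 1000000 tags of the library, or CPM.

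BMP ligands bind a complex of type I and type II serine/threonine kinase receptors. The type I receptor phosphorylates Smad1, Smad5 and Smad9, which join Smad4, enter the nucleus and raise the transcription of Id genes. Id proteins lack a DNA-binding domain and sequester the E proteins that basic helix-loop-helix (bHLH) factors such as Olig2 need to bind DNA. In embryonic stem cells, BMP with leukemia inhibitory factor (LIF) is known to sustain self-renewal through Id genes, and in oligodendrocyte progenitors BMP is known to restrain differentiation and to favour astrocytes.

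CAGE captures capped RNAs, reads a short tag from each 5′ end and was applied to nuclear RNA. There were 3 libraries of R08, a mouse embryonic stem cell (mESC) line grown without feeders in medium with LIF and serum, and 3 libraries of Oli-neu, a mouse line of oligodendrocyte progenitor origin (the mOPCs of the labels), expanded on poly-L-lysine with N2 supplement, T3, L-thyroxine, bFGF and PDGF-BB. No BMP and no BMP inhibitor was named among the additions to either medium, and serum was named for the mESCs only. Each cell type was 1 line, and nothing in the labels says that the libraries came from separate cultures, so that p-values measure only the spread between these libraries.

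The mESC libraries held 16657021 to 37888141 tags and the mOPC libraries 21925299 to 40928704. All libraries of a cell type carried 1 label that differed between cell types, so that preparation and cell type cannot be told apart. A single position held between 5.38% and 5.92% of all tags in the mOPC libraries and at most 0.667% in the mESC libraries. All 8 mESC markers were lower in mOPCs, with a summed level of 3841 to 4182 CPM in mESCs and 41.2 to 46.0 in mOPCs. Pou5f1, Nanog and Zfp42 had 0 tags in the windows in mOPCs. All 7 mOPC markers that could be tested were higher in mOPCs, with a summed level over the list of 8.82 to 10.1 in mESCs and 2413 to 2558 in mOPCs. Nkx2-2, the remaining marker of that list, had 0 tags in the windows in mOPCs. The rest of the Nkx2-2 gene held 0.232 ± 0.0126 CPM in mESCs and 0.633 ± 0.131 in mOPCs (SD, n = 3). Pdgfra was higher in mOPCs by only 0.53 on the log2 scale (SE 0.137).

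The sequences of the gene starts that the results below turn on were taken from RefSeq (GRCm38.p6), whose promoter table held 8 of the 10 genes. Each runs 5′ to 3′ on the gene's strand and ends just after the start. They are shown because the Id promoters differ in their motifs, because the Smad1 start takes a larger share of tags in mOPCs, and because Smad6 holds a Smad motif. The Id2 stretch is on the minus strand at chr12:25096088-25096332. Its capitals mark GGCGCC, the 3 CCAAT boxes (the first reads ATTGG, the same box on the other strand), ATAAA and, near the end, the most tagged base.
Id2: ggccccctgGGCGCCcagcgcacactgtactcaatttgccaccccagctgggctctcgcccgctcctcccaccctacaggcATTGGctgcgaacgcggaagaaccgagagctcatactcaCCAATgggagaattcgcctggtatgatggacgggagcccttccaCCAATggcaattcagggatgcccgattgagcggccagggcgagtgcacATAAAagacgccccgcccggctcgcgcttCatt
The Id3 stretch is on the plus strand at chr4:136143762-136143826, with TATAA and the most tagged base in capitals.
Id3: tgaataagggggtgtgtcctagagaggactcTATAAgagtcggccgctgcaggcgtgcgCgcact
The Id4 stretch is on the plus strand at chr13:48260956-48261120, with GGCGCC and the most tagged base in capitals.
Id4: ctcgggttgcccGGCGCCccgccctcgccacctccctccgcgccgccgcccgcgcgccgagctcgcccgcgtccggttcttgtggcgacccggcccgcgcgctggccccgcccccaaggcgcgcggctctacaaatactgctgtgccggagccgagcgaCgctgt
The Smad1 stretch is on the minus strand at chr8:79399424-79399498, with the most tagged base in capitals.
Smad1: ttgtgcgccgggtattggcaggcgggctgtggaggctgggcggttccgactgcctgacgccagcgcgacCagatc
The Smad6 stretch is on the minus strand at chr9:64022050-64022119, around the RefSeq start and 121 bases upstream of the most tagged position, with GTCTAGAC in capitals.
Smad6: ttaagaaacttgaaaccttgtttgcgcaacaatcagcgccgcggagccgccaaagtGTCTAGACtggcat

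These motifs were searched on both strands from 250 bases before to 50 bases after the RefSeq start. GGCGCC, a GC-rich element that BMP-activated Smads are known to bind, was found in Id2, Id4, Bmpr1a and Bmpr2, 4 of the 8 genes, and in 11.9% of 32851 promoters. GTCTAGAC, the palindrome of the Smad box, was found in Smad6 alone of the 8 and in 0.213% of all promoters. CCAAT was found in 5 of the 8 and in 37.4% of all, and the 3 boxes of Id2 are a number that 3.37% of promoters reach. GGGCGG, the core of the GC box, was found in all 8 and in 35.7% of all. TATAA or ATAAA between 40 and 20 bases before the start was searched on the gene's strand only and was found in Id2 and Id3, and in 5.72% of all promoters. The full TATAAA, on both strands of the whole window, was found in 0 of the 8 and in 13.6% of all. In Bmpr2 the RefSeq start lies 712 bases downstream of the most used position. Its GGCGCC and GGGCGG matches therefore lie downstream of that position and not before it. In Bmpr1a the RefSeq start lies 137 bases downstream, so that its CCAAT at -99 and its GGGCGG at -56 and -37 lie downstream too. In Bmp4, Bmpr1a, Bmpr2 and Smad6 the most used position lies 80 or more bases from the RefSeq start. The search for TATAA or ATAAA did not cover the bases just before it there. These matches are descriptions of the letters in the window and not sites of binding.

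All 10 genes passed the filter on low counts, and each differed between the cell types in edgeR's quasi-likelihood test (Benjamini-Hochberg adjusted p under 0.05). Of the 16713 genes tested, 91.2% passed the same threshold, 43.4% as higher and 47.8% as lower in mOPCs, so that a call alone says little and the size of each change is given instead. The genes were divided into 5 higher in mOPCs (Id2, Bmpr1a, Bmpr2, Smad1 and Smad6) and 5 lower (Id1, Id3, Id4, Bmp4 and Smad7). With a change of at least 2-fold asked for as well, 4 were higher and 5 lower, where 30.2% and 35.2% of all genes tested were (65.4% in either direction). In none of the 10 did the levels of the mESC and mOPC libraries overlap, which held for 91.4% of all genes tested. The median size of the change was 1.85 on the log2 scale over the 10 genes and 1.62 over all genes tested. In bulk RNA, fewer cells that transcribe a gene and less RNA per cell cannot be told apart.

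**Figure D1:**
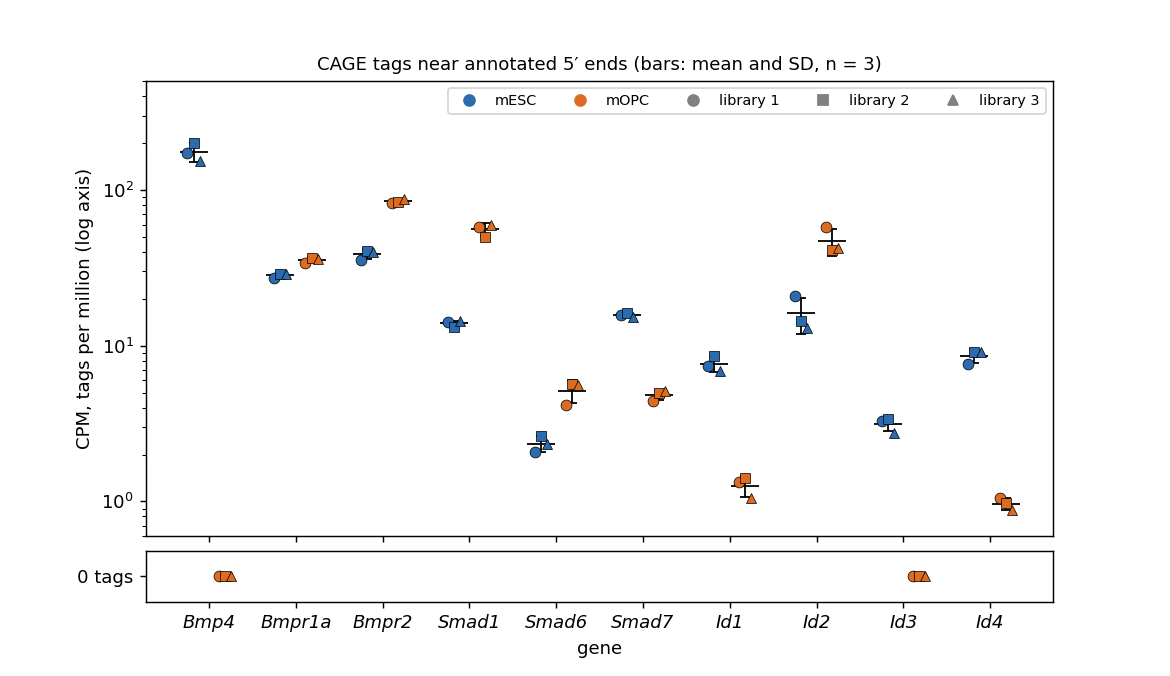
Level of each gene in CPM (log axis) in the 3 mESC and the 3 mOPC libraries, with symbols for libraries and bars for mean and SD, and with a separate strip for libraries with 0 tags. The mESC and mOPC libraries are apart for each of the 10 genes, Bmp4 and Id3 have 0 tags in all mOPC libraries, and Bmpr1a shows the smallest gap.

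Among the ligands, Bmp4 was abundant in mESCs and was not detected in mOPCs. Bmp4 (ENSMUSG00000021835.15, chr14:46383520-46390669, minus strand) had 6549, 3347 and 2814 tags in the mESC libraries, or 172.9, 200.9 and 152.7 CPM. It had 0 tags in each mOPC library, in the windows and in the rest of the gene. With 3 counts over the pooled 91692553 mOPC tags as the floor, a level of 0.0327 CPM, Bmp4 was at least 5324-fold lower in mOPCs (adjusted p = 1.42e-55). The size of its fitted change was at the 99.8th percentile of all genes tested.

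The other ligands show that the cell types differed in which ligand gene was transcribed. Of 13 other ligand genes, 6 could be tested, with 2 higher and 4 lower in mOPCs. Bmp7, a ligand that signals largely through Acvr1 and the type II activin receptors, was at 4.06, 3.30 and 5.16 CPM in mESCs and at 40.05, 43.8 and 49.2 in mOPCs. It was 10.2-fold higher in mOPCs (log2 fold change 3.35, SE 0.124, adjusted p = 4.96e-41). Bmp8a and Bmp8b, near-identical neighbouring copies between which short tags may be split or lost, were at 7.04 ± 0.858 and 4.46 ± 0.389 CPM in mESCs (SD, n = 3). Bmp8b had 0 tags in the windows in mOPCs and was at least 137-fold lower there. The rest of the Bmp8b gene held 0.217 ± 0.120 CPM in mESCs and 0.120 ± 0.0640 in mOPCs, and with the gene body counted its log2 fold change was -5.46. Bmp8a had 505 tags in mESCs and 2 in mOPCs, a ratio of 317 (95% exact binomial interval 87.4 to 2627, counting error only). Over all BMP ligand genes, Bmp4 took 90.1% ± 1.98 of the mESC tags and 0% of the mOPC tags, and Bmp7 took 2.20% ± 0.734 in mESCs and 97.3% ± 0.344 in mOPCs (SD, n = 3). The summed ligand level was 194.5 ± 22.6 CPM in mESCs and 45.6 ± 4.85 in mOPCs. The cell types did not overlap in these sums and shares, where the two-sided exact permutation test gave p = 0.1, the smallest that 3 against 3 libraries allow.

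**Figure D2:**
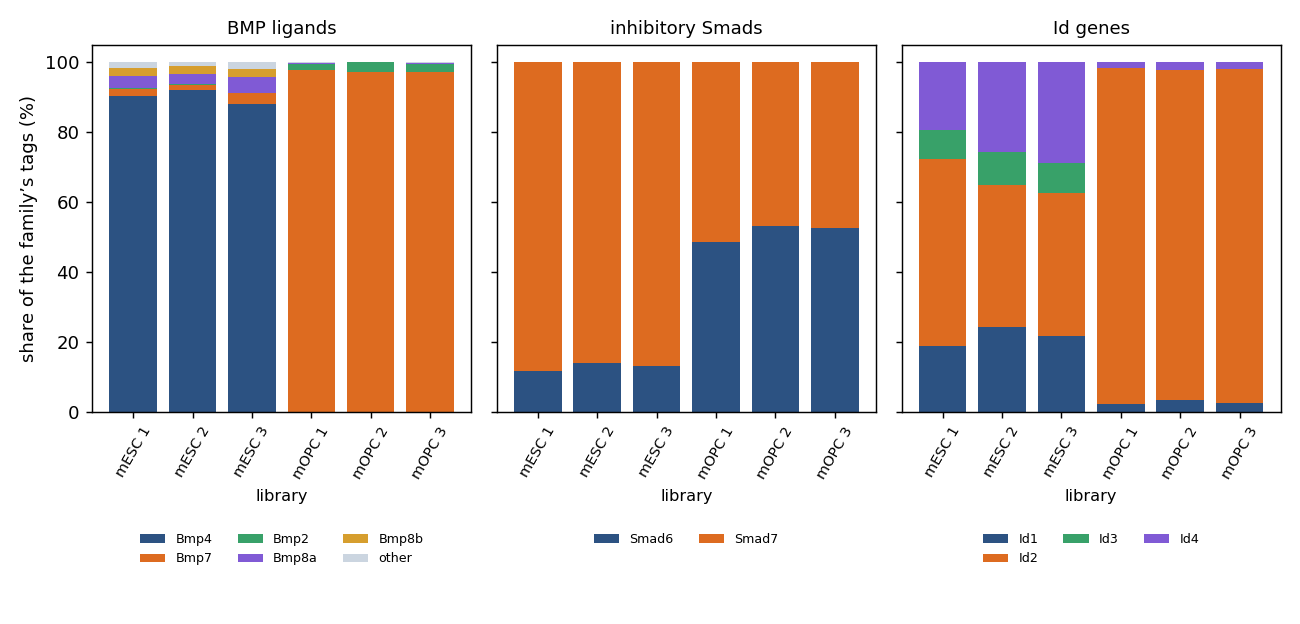
Share of the tags of a gene family (%) taken by each gene in each library, for the BMP ligands, the inhibitory Smads and the Id genes. Bmp4 gives way to Bmp7, Smad6 comes to hold about as many tags as Smad7, and Id2 rises from 45.0% to 95.4% of the Id tags between mESC and mOPC libraries.

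The member receptors Bmpr1a and Bmpr2 were transcribed in both cell types and were higher in mOPCs. Bmpr2 (ENSMUSG00000067336.6, chr1:59763400-59879014, plus strand) encodes the type II receptor specific to BMPs. It had 35.6, 40.5 and 40.2 CPM in mESCs and 82.1, 83.6 and 87.2 in mOPCs. It was the highest of the 10 genes in mOPCs and was 2.09-fold higher there than in mESCs (log2 fold change 1.06, SE 0.0883, adjusted p = 2.55e-20). With windows of 100 bp in place of 500 bp its log2 fold change was 0.16 (adjusted p = 0.146), and its most used start lies 167 bp into the annotated gene.

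Bmpr1a (ENSMUSG00000021796.15, chr14:34410734-34503341, minus strand) encodes a type I receptor that binds Bmp4 and Bmp2. It had 27.2, 29.1 and 29.0 CPM in mESCs and 34.2, 36.7 and 36.1 in mOPCs. Its levels did not overlap, but the change was the smallest of the 10, at the 10.0th percentile of all genes by size (log2 fold change 0.26, SE 0.0928, adjusted p = 0.0063). The call was lost with another scaling (relative log expression factors, 0.17, adjusted p = 0.0637), with DESeq2 (0.17, adjusted p = 0.0767), without mESC library 2 (0.21, adjusted p = 0.0556) and without mESC library 3 (0.20, adjusted p = 0.0670).

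Among 9 other receptors and co-receptors, 8 could be tested, with 5 higher and 3 lower in mOPCs. Acvrl1, 1 of the 5, had a log2 fold change of 1.16 that turned to -3.85 in windows of 100 bp. Acvr1, the type I receptor that pairs with Bmp7, was at 5.02 ± 0.601 CPM in mESCs and at 47.8 ± 2.80 in mOPCs (SD, n = 3), a log2 fold change of 3.18 (SE 0.114). The type II receptor Acvr2a was modestly higher in mOPCs (61.3 ± 5.10 and 86.7 ± 2.95, log2 fold change 0.44), and Acvr2b was lower (62.9 ± 2.14 and 27.2 ± 2.72, log2 fold change -1.27). Eng, which encodes the co-receptor endoglin, had 3557 tags in mESCs and 3 in mOPCs, a ratio of 1490 (95% exact binomial interval 509 to 7228, counting error only). Outside the windows, the Eng gene held 1.29 ± 0.132 CPM in mESCs and 0.813 ± 0.0467 in mOPCs. Bmpr1b, another type I receptor, had 351 tags in the windows in mESCs and 1 in mOPCs. Its fitted log2 fold change of -8.36 rests on that 1 tag, so that its size is uncertain. Outside the windows, the Bmpr1b gene held 1.06 ± 0.317 CPM in mESCs and 1.54 ± 0.0432 in mOPCs.

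Smad1 was higher in mOPCs. Smad1 (ENSMUSG00000031681.16, chr8:79338395-79399518, minus strand) had 14.1, 13.2 and 14.3 CPM in mESCs and 58.0, 49.8 and 59.9 in mOPCs. The change was 3.84-fold (log2 fold change 1.94, SE 0.0992, adjusted p = 3.67e-34), and over the alternatives it ranged from 1.84 to 2.04 on the log2 scale.

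The 3 other receptor-activated and common Smads were not shifted alike. Smad5, which receives the same phosphorylation as Smad1, was at 53.4, 56.9 and 58.4 CPM in mESCs and at 54.1, 60.6 and 61.2 in mOPCs. These levels overlapped, and Smad5 did not pass the test, with a log2 fold change of -0.002 (SE 0.0874, adjusted p = 0.98) that was 0.06 without the TMM factor. Smad4, the partner common to BMP and TGF-β signalling, was 1.97-fold higher in mOPCs (43.5 ± 4.58 and 89.9 ± 5.74 CPM). Smad9 was low in both, at 0.484 ± 0.0592 and 1.797 ± 0.176, and was higher in mOPCs (log2 fold change 1.87, SE 0.282). With the tags of the whole gene body added, the change of Smad9 was 0.31 (adjusted p = 0.202).

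The inhibitory Smads went in opposite directions. Smad7 (ENSMUSG00000025880.11, chr18:75367529-75395935, plus strand), which blocks both BMP and TGF-β receptors, had 15.84, 16.21 and 15.36 CPM in mESCs and 4.42, 4.99 and 5.08 in mOPCs. It was 3.39-fold lower in mOPCs (log2 fold change -1.76, SE 0.129, adjusted p = 1.12e-23). In windows of 100 bp its log2 fold change was -0.99, and its most used start lies 168 bp before the annotated 5′ end.

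Smad6 (ENSMUSG00000036867.7, chr9:63953076-64022059, minus strand), which acts mainly on BMP receptors and on Smad1, had 2.09, 2.64 and 2.33 CPM in mESCs and 4.15, 5.69 and 5.60 in mOPCs. It was 2.16-fold higher in mOPCs (log2 fold change 1.11, SE 0.172, adjusted p = 6.68e-09), on 43 to 79 tags per mESC library. With the tags of the whole gene body added, the change of Smad6 was 0.63. Outside the windows, the Smad6 gene held 1.53 ± 0.0810 CPM in mESCs and 1.17 ± 0.176 in mOPCs. Smad7 made up 87.1% ± 1.21 of the summed tags of both genes in mESCs but 48.6% ± 2.59 in mOPCs (SD, n = 3). Their sum was 18.2 ± 0.614 CPM in mESCs and 9.98 ± 1.21 in mOPCs (two-sided exact permutation p = 0.1). In windows of 100 bp the sum was 1.13 CPM higher in mOPCs, the opposite direction.

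Other inhibitors were also divided. Of 6 that act inside the cell or at its membrane, 2 were higher and 3 lower in mOPCs. Tob1, a Smad co-repressor, was at 106.2 ± 4.91 CPM in mESCs and at 106.8 ± 8.49 in mOPCs and did not pass the test (log2 fold change -0.06, adjusted p = 0.506). Skil, which encodes the Smad repressor SnoN, was 3.99-fold lower in mOPCs (67.3 ± 1.85 and 17.7 ± 1.40), and Smurf1, a ubiquitin ligase for Smad1, was 2.61-fold higher (10.4 ± 0.986 and 28.7 ± 3.54).

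Of 15 extracellular antagonists, 6 could be tested, with 3 higher and 3 lower in mOPCs. Twsg1 was the most transcribed in both cell types and was 3.13-fold lower in mOPCs (114.9 ± 2.93 and 38.4 ± 2.01 CPM). Fst, which encodes the ligand trap follistatin, was at 5.81 ± 0.337 in mESCs and had 0 tags in mOPCs, at least 176-fold lower. Chrd, which encodes chordin, and Bmper were higher in mOPCs, by 3.92-fold (1.81 ± 0.220 and 7.18 ± 0.601) and by 2.47-fold (4.88 ± 0.284 and 12.6 ± 1.35).

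**Figure D3:**
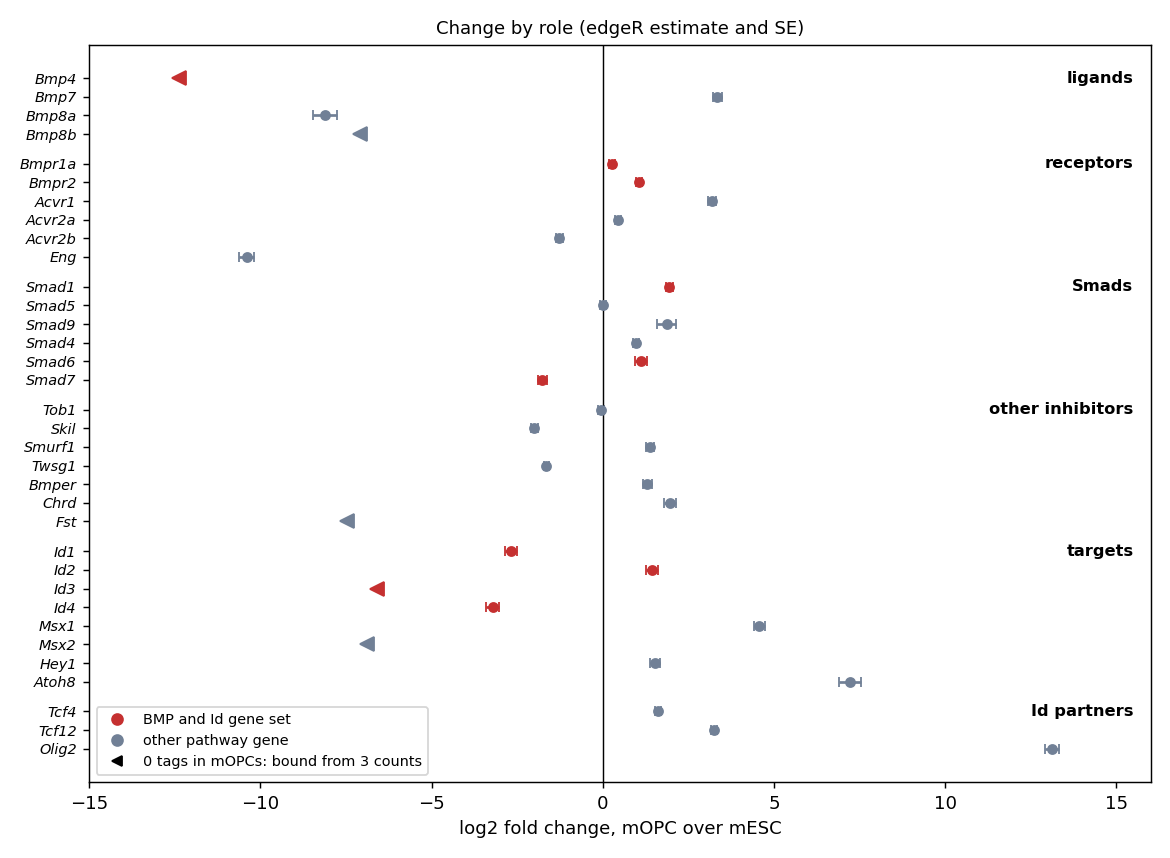
Log2 fold change of mOPCs over mESCs from edgeR, with an SE derived from the F statistic of the test, ordered by role. Red marks the 10 genes and grey the other pathway genes named for their level or largest change. Triangles mark genes with 0 tags in mOPCs at the bound that 3 counts allow. The ligands, receptors, inhibitors and targets hold genes well to both sides of 0, and Bmp4 lies at the left end with a bound of 5324-fold.

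The Id genes did not move together: Id1, Id3 and Id4 were lower in mOPCs, and Id2 was higher. Id1 (ENSMUSG00000042745.9, chr2:152736251-152737410, plus strand) had 281, 143 and 127 tags in mESCs, or 7.42, 8.58 and 6.89 CPM. In mOPCs it had 29, 41 and 43 tags, or 1.32, 1.42 and 1.05 CPM. It was 6.38-fold lower in mOPCs (log2 fold change -2.67, SE 0.176, adjusted p = 1.63e-26).

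Id3 (ENSMUSG00000007872.3, chr4:136143497-136145755, plus strand), a close relative of Id1 that often shares its expression, was at 3.27, 3.36 and 2.77 CPM in mESCs. It had 0 tags in each mOPC library, in the windows and in the rest of the gene, and was at least 96.8-fold lower there (adjusted p = 6.77e-29). Id4 (ENSMUSG00000021379.2, chr13:48261228-48266026, plus strand), which is known for its part in oligodendrocyte timing, was at 7.63, 9.07 and 9.17 CPM in mESCs and at 1.05, 0.971 and 0.880 in mOPCs. It was 9.31-fold lower in mOPCs (log2 fold change -3.22, SE 0.181, adjusted p = 3.05e-31), on 23 to 36 tags per mOPC library.

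Id2 (ENSMUSG00000020644.9, chr12:25093799-25097140, minus strand), which is known to restrain oligodendrocyte differentiation, was at 20.9, 14.4 and 13.0 CPM in mESCs and at 57.8, 41.3 and 42.4 in mOPCs. The paper lists Id2 among its mOPC markers. Library 1 was the highest of each cell type. Id2 was 2.71-fold higher in mOPCs (log2 fold change 1.44, SE 0.185, adjusted p = 3.12e-05), with a range of 1.23 to 1.75 over the alternatives.

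The summed level of the Id genes differed less than their makeup. The sum was 39.2, 35.4 and 31.9 CPM in mESCs and 60.2, 43.7 and 44.3 in mOPCs. Id2 held 45.0% ± 7.23 of the sum in mESCs and 95.4% ± 0.793 of it in mOPCs (SD, n = 3), while Id1 fell from 21.6% ± 2.66 to 2.61% ± 0.566, Id4 from 24.6% ± 4.75 to 1.98% ± 0.239 and Id3 from 8.84% ± 0.589 to 0%. Sum and shares did not overlap between the cell types, with a two-sided exact permutation p of 0.1 each. The sums and shares of the ligands, the inhibitory Smads and the Id genes were 14 measures chosen after the data were seen, and adjusted over them the p stayed at 0.1.

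The 4 other targets were divided too, with 3 higher and 1 lower in mOPCs. Msx1 was at 1.61 ± 0.526 CPM in mESCs and 42.4 ± 5.40 in mOPCs (log2 fold change 4.58, SE 0.1503). Its relative Msx2 was at 3.88 ± 0.509 in mESCs with 0 tags in mOPCs, at least 118-fold lower. Hey1, shared with Notch signalling, was 2.86-fold higher in mOPCs (4.44 ± 0.644 and 13.4 ± 1.92), and Atoh8 had 4 tags in all mESC libraries together and 849 in mOPCs.

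Of 6 bHLH factors that Id proteins act on, 5 were higher in mOPCs, and the E protein gene Tcf3 did not pass the test (log2 fold change -0.09, adjusted p = 0.353). The sign of Tcf3 turned under 3 of the alternatives, and under 4 others it passed as lower, with values from -0.18 to -0.24. The E protein genes Tcf4 and Tcf12 went from 90.3 ± 3.73 to 291.0 ± 11.4 and from 24.98 ± 1.31 to 250.2 ± 22.8 CPM (log2 fold changes 1.62 and 3.25). Olig2, the lineage factor of oligodendrocytes, had 3 tags in mESCs and 39170 in mOPCs, a ratio of 10391 (95% exact binomial interval 3555 to 50389, counting error only). Over all 56 other pathway genes, 39 were tested, 22 were higher and 14 lower, and the median log2 fold change was 0.98. Over the 10 genes themselves it was -0.75, and over all genes tested -0.12. The 39 include the bHLH factors, whose own median was 4.06 and among which Olig1 and Olig2 are also mOPC markers.

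Markers of other cell types were read beside these results. Of 5 primitive endoderm markers, 4 were lower in mOPCs and 1, Dab2, was higher. The summed level of the 5 was 73.0 to 90.4 CPM in mESCs and 56.4 to 62.3 in mOPCs. Most of it came from Dab2, at 47.5 ± 6.31 and 58.7 ± 3.10 (log2 fold change 0.24). Gata4 and Gata6, 2 of the 4 lower ones, were at 10.9 and 10.2 CPM in mESCs, with 2 and 0 tags in the windows in mOPCs. Of 5 neuron markers, 4 were lower in mOPCs (sums 278 to 303 and 80.6 to 101), and Stmn2 alone was at 282.8 in mESCs. Syt1, the remaining one, was higher in mOPCs, at 3.45 ± 0.293 and 88.3 ± 11.0 (log2 fold change 4.63). It made up most of the mOPC sum. Of 4 astrocyte markers tested, 2 were higher in mOPCs (Slc1a2 and Gfap) and 2 lower (Gja1 and Aldh1l1). The sums were 78.7 to 93.5 CPM in mESCs, most of it from Gja1 at 77.7. In mOPCs they were 14.5 to 15.98, most of it from Slc1a2 at 14.0, which the paper lists among its mOPC markers. Aqp4 had 1 tag in mESCs and 0 in mOPCs. The 1 fibroblast marker tested, Col1a1, was higher in mOPCs (list sums 2.32 to 2.40 and 9.67 to 12.3), and Lum was at 0 in both. The part of such cells in the levels above was not tested.

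Within each cell type the 10 genes were ordered by level. CAGE counts 5′ ends, so that a level does not scale with the length of the RNA, but a gene with several annotated 5′ ends is counted over more bases. In mESCs the order was Bmp4, Bmpr2, Bmpr1a, Id2, Smad7, Smad1, Id4, Id1, Id3 and Smad6, and among neighbours in this order the libraries overlapped between Id2 and Smad7 and between Id4 and Id1. The mESC libraries of Id2 were spread widely enough to overlap those of Smad1 too. In mOPCs it was Bmpr2, Smad1, Id2, Bmpr1a, Smad6, Smad7, Id1 and Id4, with Id3 and Bmp4 at 0, and neighbours above 0 overlapped between Smad1 and Id2 and between Smad6 and Smad7. Bmp4 was at the 93.9th percentile of all genes tested in mESCs, and Bmpr2 at the 86.4th in mOPCs.

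CAGE also gives the position of each start. Id2 and Id4 each had 1 leading position in both cell types, and Id1 and Id3 had 1 in mESCs. The most used position of Id2 lies at chr12:25096091, 1 base from the annotated 5′ end, and held 74.4% ± 6.81 of the tags of its start region in the mESC libraries, against 72.6% ± 4.90 in mOPCs (SD, n = 3, two-sided exact permutation p = 0.9). The most used position of Id1 lies at chr2:152736254, 3 bases into the gene, with 51.2% ± 7.12 of its tags in mESCs and 24.1% ± 8.89 in mOPCs, where the annotated 5′ end itself held 27.7% ± 10.5 on 29 to 43 tags a library. That of Id3 lies at chr4:136143821 with 54.0% ± 5.36 in mESCs, and that of Id4 at chr13:48261115 with 44.2% ± 2.17 in mESCs and 51.2% ± 9.07 in mOPCs. Bmp4 was spread over many positions, and its most used one, at chr14:46390589, held 8.32% ± 0.153 of its tags in mESCs.

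The most used position lay 1 base before the RefSeq start in Id3, Id4 and Smad1 and 1 base after it in Id2. Across 10718 promoters of the table with enough tags, it lay 1 base before the RefSeq start in 12.8% and at the start itself in 1.19%. The next base downstream was A in 51.2% and G in 44.4% of 10569 promoters. Positions are given as deposited and may therefore lie a base before the first transcribed base. In Bmpr2 the most used position lay 712 bases before the RefSeq start, in Bmpr1a 137 bases before it, and in Bmp4 80 and in Smad6 121 bases after it.

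Start positions could be compared between the cell types for the 5 genes with at least 50 tags in every library in their most used start region: Id2, Bmpr1a, Bmpr2, Smad1 and Smad7. The share of tags at the most used position did not overlap between the cell types in 3 of the 5, where 67.7% of all genes compared did not overlap. Smad1 was the most concentrated of the 3: its position at chr8:79399429 held 26.5%, 27.1% and 24.0% of the mESC tags and 51.0%, 49.2% and 52.7% of the mOPC tags. In Bmpr1a the share at chr14:34502683 was 6.67% ± 0.507 in mESCs and 16.5% ± 0.547 in mOPCs, and in Bmpr2 at chr1:59763567 it was 5.57% ± 0.838 and 12.4% ± 1.02 (SD, n = 3). Each gave a two-sided exact permutation p of 0.1 (0.167 adjusted over the 5 genes). Id2, also higher in mOPCs, and Smad7 (14.8% ± 1.70 and 13.9% ± 5.23) overlapped in this share.

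The median start moved in 3 of the 5 genes, where 54.9% of all genes compared did not overlap. In Smad7 it lay 164, 148 and 162 bp before the annotated 5′ end in mESCs but 30, 27 and 27 bp after it in mOPCs. Tags upstream of the 5′ end made up 67.3% ± 2.60 of the Smad7 start region in mESCs and 41.8% ± 8.66 in mOPCs. The upstream tags went from 9.03 ± 0.590 to 1.55 ± 0.393 CPM and the downstream tags from 4.37 ± 0.225 to 2.13 ± 0.211, so that both were lower in mOPCs. In Bmpr1a the median start moved from 54.7 ± 18.5 bp to 8 ± 2 bp after the 5′ end, and in Bmpr2 from 139.7 ± 4.62 bp to 161 bp in each mOPC library. The medians of Smad1 and Id2 overlapped (exact permutation p = 1 each). Each of the 3 shifts gave a two-sided exact permutation p of 0.1 (0.167 adjusted over the 5 genes).

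**Figure D4:**
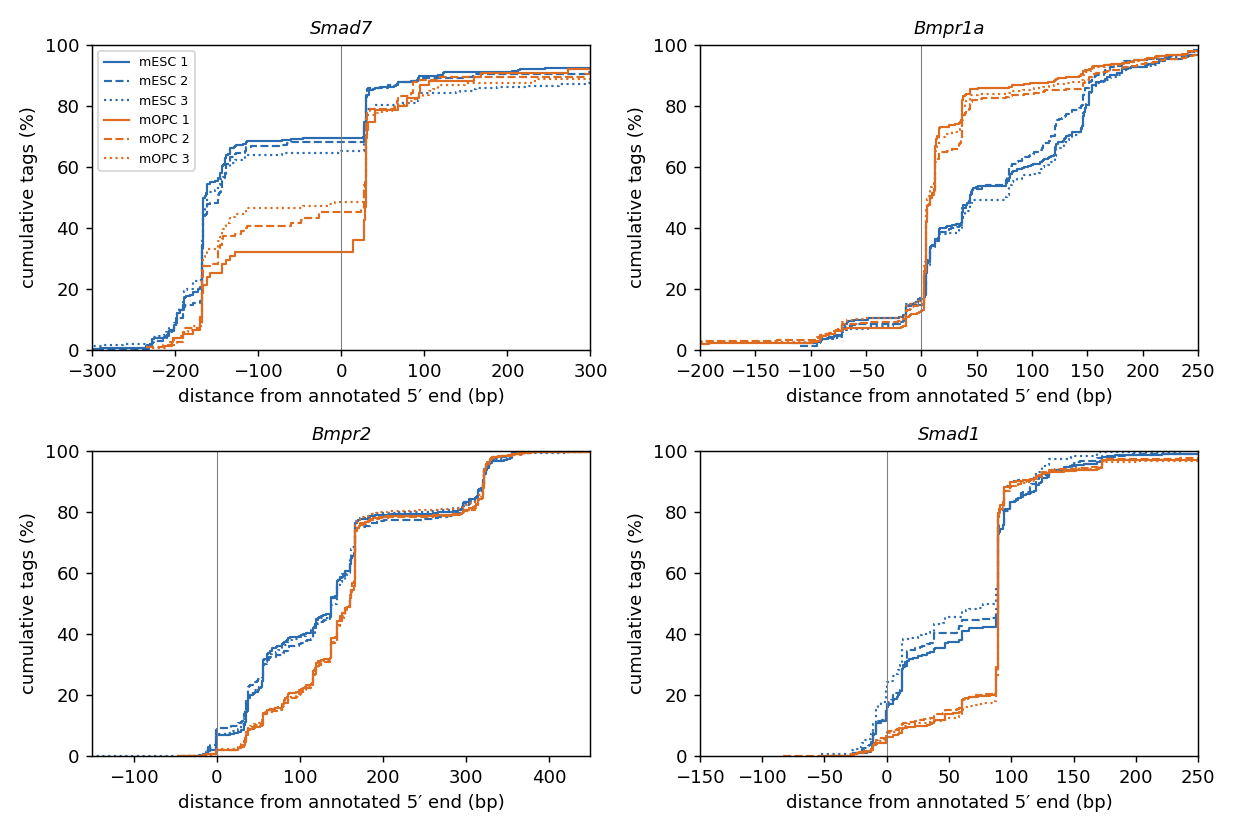
Cumulative share of tags (%) along the most used start region against the distance from the annotated 5′ end (bp), 1 line per library, for Smad7, Bmpr1a, Bmpr2 and Smad1. In mESCs the Smad7 lines pass 50% before the 5′ end and in mOPCs after it, and the Smad1 step at 89 bp is steeper in mOPCs.

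The width that holds the tags between the 10th and 90th percentile did not overlap in 2 of the 5 genes, where 62.9% of all genes compared did not overlap. For Smad1 the width was 125 ± 12.7 bp in mESCs against 93.3 ± 13.3 bp in mOPCs, and for Bmpr2 293 ± 3.06 against 276 ± 7.55 bp (SD, n = 3, two-sided exact permutation p = 0.1, adjusted 0.25). Id2 was narrow in both (3.67 ± 2.89 and 12.7 ± 11.6 bp, exact permutation p = 0.3), and the widths of Bmpr1a (199 and 179 bp, p = 0.4) and Smad7 (401 and 433 bp, p = 0.9) overlapped. Between the 25th and 75th percentile instead, mOPCs were narrower than mESCs by more, with a difference of -99.7 bp for Bmpr1a, -79.7 bp for Smad1 and -60.3 bp for Bmpr2 (exact permutation p = 0.1 each), so that Bmpr1a no longer overlapped.

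Alternative start regions were compared in Smad6 and Smad7, which each had a pair of regions with at least 5% of the tags that could be measured in both cell types. In Smad7 the most used region held 84.8% ± 1.26 of the mESC tags and 76.1% ± 3.11 of the mOPC tags (two-sided exact permutation p = 0.1, adjusted 0.2), where 84.3% of all genes compared did not overlap. In windows of 100 bp the difference was 7.29 percentage points in the other direction. In Smad6 the region held 94.0% ± 5.82 and 99.3% ± 0.628 (exact permutation p = 0.4). In Bmp4 a second region, at chr14:46386804-46387804, held 7.26% ± 0.294 of the tags in mESCs.

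Tags on the opposite strand in the 1000 bp upstream of the most used position, where divergent RNAs start, were a measure apart from the levels. The cell types did not overlap in 6 of the 10 genes, where 70.2% of all genes compared did not. Upstream of Bmp4 they were at 12.5, 11.9 and 15.2 CPM in mESCs and at 0 in each mOPC library. Upstream of Smad7 they were at 11.1, 13.4 and 11.9 in mESCs and 3.97, 4.92 and 4.32 in mOPCs, and the annotated opposite-strand gene Gm20544, which starts 273 bp away, was at 11.5 ± 1.12 and 4.36 ± 0.469. Id2 and Bmpr1a had more in mOPCs, with 0.780 ± 0.155 and 4.78 ± 0.853 for Id2 and 2.53 ± 0.278 and 5.47 ± 0.482 for Bmpr1a. Id4 (1.14 ± 0.257 and 0.0499 ± 0.0521) and Id3 (0.118 ± 0.0527 and 0) had fewer in mOPCs, on few tags. In these 6 genes the opposite strand and the gene itself differed in the same direction, each with a two-sided exact permutation p of 0.1 (0.167 adjusted over the 10 genes). How often the directions agree over all genes was not measured, so that the agreement cannot be called particular to these genes. With positions of 1 tag left out, the difference for Id3 was lost (-0.039 CPM, exact permutation p = 1).

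The opposite strand overlapped between the cell types in the other 4 genes. Upstream of Id1 it was at 0.935 ± 0.267 in mESCs and 1.04 ± 0.392 in mOPCs (two-sided exact permutation p = 0.7), although Id1 itself was 6.38-fold lower. Upstream of Bmpr2 it was at 4.50 ± 0.388 and 3.84 ± 0.387 (exact permutation p = 0.2), although Bmpr2 itself was 2.09-fold higher. Smad1 and Smad6 had means under 0.4 opposite-strand CPM in both cell types (exact permutation p = 0.5 and p = 0.3).

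**Figure D5:**
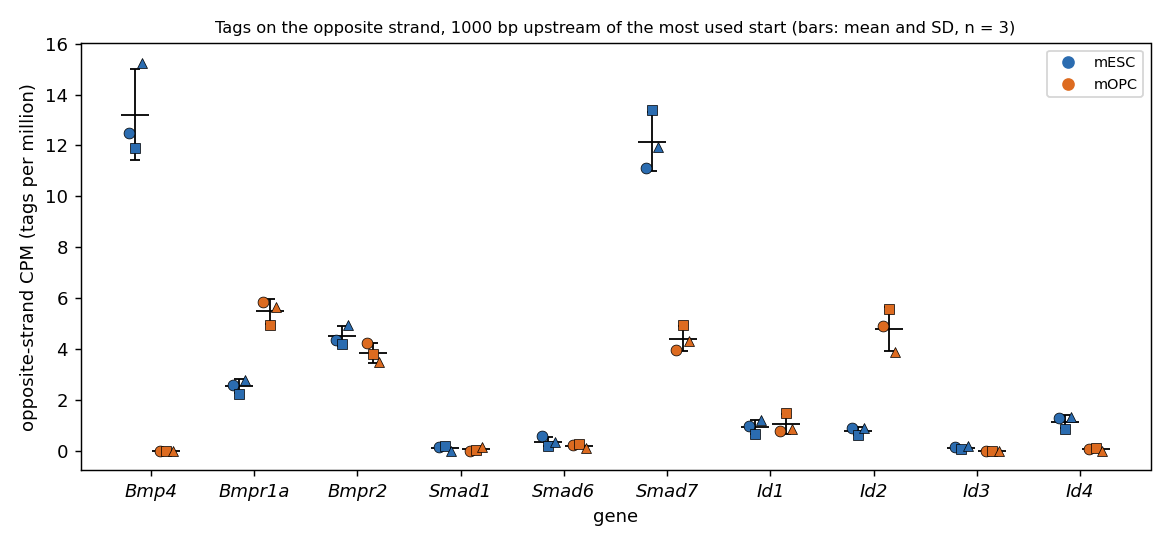
Tags CPM on the opposite strand in the 1000 bp upstream of the most used start of each gene, for the 3 mESC and 3 mOPC libraries, with bars for mean and SD. Bmp4 and Smad7 stand out in mESCs with 11.1 to 15.2 CPM, Id2 and Bmpr1a are higher in mOPCs, and Smad1 lies near 0 in both.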

How the data were processed

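Nuclear CAGE was measured in 3 mESC and 3 mOPC libraries. The authors demultiplexed the reads, discarded those with an N, clipped the linkers and kept tags aligned uniquely to mm10 (bowtie by the paper's methods, whereas the submitters' processing notes name BWA 0.5.9 and CASAVA 1.8). The deposited values are raw counts of tag 5′ ends by position and strand. Totals of 16657021 to 40928704 tags set the precision.

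Tags within 500 bp of GENCODE vM21 5′ ends were summed by gene and strand and divided by the library total. Counts were tested with edgeR 4.0.16 in R 4.3.3 (quasi-likelihood, robust, TMM, filterByExpr, Benjamini-Hochberg over 16713 genes). Each SE was derived as the size of the log2 fold change divided by the square root of the test's F statistic. DESeq2 1.42.0, other scalings, filters, windows, thinning, a replicate block and each library left out were the alternatives. Start measures were compared by exact permutation with Python 3.11.15 and scipy 1.17.1. On simulated counts for 16713 genes, with a coefficient of variation of 0.1 between replicates, 200 genes were changed by 2 on the log2 scale. All 200 were recovered among 218 calls, 18 of them false. In the data 91.2% of genes were called, far more than the simulation changed. Its recovery and false calls therefore do not measure those of the data. A gene at 0 was set to 3 counts over the pooled tags of its cell type. Without molecular identifiers, such bounds and intervals describe counting error alone.

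All 10 genes were described. Of each other list, counts were given, and at most the 3 genes with the highest mean level and the gene with the largest change past the threshold were named. Tcf3, Acvrl1, Bmpr1b, Gm20544 and the markers named singly were chosen after their values were seen. The genes and lists were chosen with earlier results of these data known.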

Additional observations from a re-analysis of the deposited data

How the results depend on the processing

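Of 159 values of the 10 genes under the alternatives, 154 kept their direction and their side of the threshold, and 5 lost the call, 4 of them for Bmpr1a and 1 for Bmpr2, as given above. In windows of 100 bp, 4 genes were higher, with Bmpr2 not called, and 4 lower, with Id4, whose most used start lies 113 bp before the 5′ end, not past the filter on low counts. Changes of at least 2-fold numbered 2 higher with DESeq2 against 4, and 3 lower in windows of 100 bp against 5. Of 617 values of the other pathway genes, 602 kept theirs, 5 gained a call as lower (4 for Tcf3 and 1 for Tob1, -0.17 with positions of 1 tag left out), 1 lost its call (Smad9), and 9 turned their sign: Acvrl1 in windows of 100 bp (log2 fold change -3.85), Smad5 without the TMM factor (0.064), with the gene body (0.12) and without mOPC replicate 1 (from -0.064 to 0.025 with each library left out), Tob1 without the TMM factor (0.0076) and without mESC replicate 1 (from -0.15 to 0.019), and Tcf3 with the gene body (0.13) and without mESC replicate 1 or mOPC replicate 2 (from -0.24 to 0.0080). Genes whose start region shares did not overlap numbered 1, but 0 with positions of 1 tag left out, where 1 gene could be compared, and from 1 to 2 with each library left out, with 2 without mESC replicate 2. The cause was not tested. Of 307 values of start measures and family shares, 286 moved by less than the spread between replicates and 21 by more, and 15 changed sign, among them the opposite strand of Bmpr2 (0.0516 CPM with positions of 1 tag left out). The median log2 fold change of all genes was -0.12, and -0.05 without the TMM factor and -0.21 with DESeq2. With a replicate block, 15224 genes were called against 15243, and 5 of the 10 genes were higher and 5 lower as before. Same-numbered libraries deviated together with correlations of -0.0025, 0.059 and 0.0070, and differently numbered ones with correlations from -0.067 to 0.067. These values show no sign of pairing by replicate number, but correlations near 0 cannot exclude that libraries were prepared in pairs. Depth limits Id1 and Id4 in mOPCs and Smad6 in mESCs, on 23 to 79 tags a library.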
